A study of Mus musculus with 2 samples.

Results

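The antimicrobial genes described here are the 6 genes whose symbols are Lyz1, Lyz2, Mpeg1, Slpi, Camp and Slc11a1. The choice was by name and not by a measured value, but earlier results of these data were known. The members were 6 of 55536 annotated genes in the deposited gene tables, with 18 annotated transcripts. The cells were macrophages grown from the bone marrow of C57BL/6J mice, kept as primary cells. All libraries came from cells that had been given lipid A, the TLR4-binding part of bacterial lipopolysaccharide, at 100 ng/ml for 12 h. The cells were then kept for 12 h without it and exposed again at 100 ng/ml for 75 min. Total RNA of the cytosolic fraction was sequenced after depletion of ribosomal RNA in 2 biological replicates of this 1 group. The animals' age and sex were not recorded, and the replicates carry the same donor code, so nothing in the labels says that they came from different mice. No untreated cells were analysed here, so the values are levels and not responses to lipid A.

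Macrophages kill ingested microbes inside phagosomes with enzymes, pores and changes in metal supply. Lysozymes cut the peptidoglycan wall of bacteria. Mice have a pair of neighbouring lysozyme genes: Lyz2 encodes the M form of macrophages and neutrophils, and Lyz1 the P form known from Paneth cells of the gut. Mpeg1 encodes perforin-2, a pore-forming protein of phagosomes. Slc11a1, also called Nramp1, is a transporter that removes divalent metals from the phagosome, and C57BL/6 mice are known to carry an allele that does not function. Camp encodes the cathelicidin CRAMP, an antimicrobial peptide stored in neutrophil granules. Slpi encodes a secreted inhibitor of serine proteases such as neutrophil elastase, and its protein is also antimicrobial.

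The lysozyme paralogues are near-identical, so their sequences decide how well reads can be told apart. On mm10 with GENCODE M21, Lyz1 lies at chr10:117287797-117292868 and Lyz2 at chr10:117277331-117282321, both on the minus strand and 5475 bases apart. Their coding sequences are 447 bases long and differ at 22 bases, which is 95.1% identity. Of 148 codons, 12 encode other residues. The first 210 coding bases hold 17 of the 22 differences and are shown to let a reader see where reads separate the genes. Capitals mark bases that differ. The stretches run over exons 1 and 2, at chr10:117291120-117292838 for Lyz1 and chr10:117280732-117282242 for Lyz2, minus strand.
Lyz1: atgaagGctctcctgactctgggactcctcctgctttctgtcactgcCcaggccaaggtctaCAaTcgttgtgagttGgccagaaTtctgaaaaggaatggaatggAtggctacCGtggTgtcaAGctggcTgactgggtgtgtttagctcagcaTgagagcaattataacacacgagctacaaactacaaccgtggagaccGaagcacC
Lyz2: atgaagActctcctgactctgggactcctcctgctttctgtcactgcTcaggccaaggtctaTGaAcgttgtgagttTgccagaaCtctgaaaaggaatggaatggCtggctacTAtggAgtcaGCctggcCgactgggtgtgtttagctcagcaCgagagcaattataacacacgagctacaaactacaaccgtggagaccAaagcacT
The longest identical run in the coding sequence was 118 bases. Of all 31-base words in the transcripts, 422 were shared, which is 34.2% of those of Lyz1 and 32.8% of those of Lyz2. Of 100-base words 24 were shared, or 2.06% of those of Lyz1, and of 200-base words none of 1064. A stretch of 200 bases within the annotated transcripts therefore always held a difference, while a shorter one might not.

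Sequence upstream of the lysozyme genes was less alike than their coding sequence. The windows below come from RefSeq on GRCm38.p6, at chr10:117292918-117293118 for Lyz1 and chr10:117282322-117282522 for Lyz2, minus strand. They are shown because the genes stand side by side at very different levels. The window of Lyz2 starts next to the first base of its GENCODE transcript, at 117282321, while that of Lyz1 starts further upstream of its own, at 117292868. The windows lie at the same distance from the starts that RefSeq gives, but not from the GENCODE starts. Of the 201 bases in each window 155 were identical, or 77.1%. Capitals mark the bases that differ in the alignment. No measurement of these windows, such as binding or methylation, was analysed here.
Lyz1: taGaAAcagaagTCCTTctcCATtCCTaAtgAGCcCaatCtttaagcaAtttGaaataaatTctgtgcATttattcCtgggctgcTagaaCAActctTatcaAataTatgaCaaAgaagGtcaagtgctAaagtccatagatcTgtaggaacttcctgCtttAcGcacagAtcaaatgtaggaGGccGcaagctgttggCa
Lyz2: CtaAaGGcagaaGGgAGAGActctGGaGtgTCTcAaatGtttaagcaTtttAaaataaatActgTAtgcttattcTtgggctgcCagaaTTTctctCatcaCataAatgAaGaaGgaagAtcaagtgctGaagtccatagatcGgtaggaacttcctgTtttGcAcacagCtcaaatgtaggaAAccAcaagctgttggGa

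Lyz2 was among the most abundant messages of these cells and Lyz1 was scarce. Levels are the deposited TPM values, which correct for length and scale each library to the same sum. Lyz2 stood at 2912.5 in replicate 1 and 3115 in replicate 2, or 3014 ± 143 (SD, n = 2), rank 7 and 8 among 22028 protein-coding genes. The rank depended on the table: the mean percentile of Lyz2 among these genes was 99.97 here and 99.61 in TPM estimated from the reads. Lyz1 stood at 0.80 and 1.00, or 0.90 ± 0.14 (n = 2), rank 9353 and 8922. The replicates thus lay close together for each gene while the genes lay far apart. Within each library the level of Lyz2 was 3641-fold and 3115-fold that of Lyz1, a difference of 11.56 ± 0.14 (n = 2) on the log2(TPM + 0.1) scale. The ranges did not overlap, and the difference was far larger than the spread between replicates.

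In expected counts, the unscaled estimates of reads per gene, Lyz2 held 357937 and 312058 and Lyz1 93.05 and 95.05. Lyz1 therefore took 0.0260% of the counts of both genes in replicate 1, with an exact Clopper-Pearson 95% interval of 0.0210% to 0.0318%. In replicate 2 it took 0.0304%, with an interval of 0.0246% to 0.0372%. These intervals, like all given below, cover counting error only. The table estimated from the reads, not from the alignment, gave 0.0223% and 0.0285%. The deposited posterior SD of the Lyz1 count was 0.21 and 0.24 counts, small beside the counting error. A share as small as that of Lyz1 rests on the correct assignment of few reads among near-identical sequences, so Lyz1 is given as an uncertain level.

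**Figure D1:**
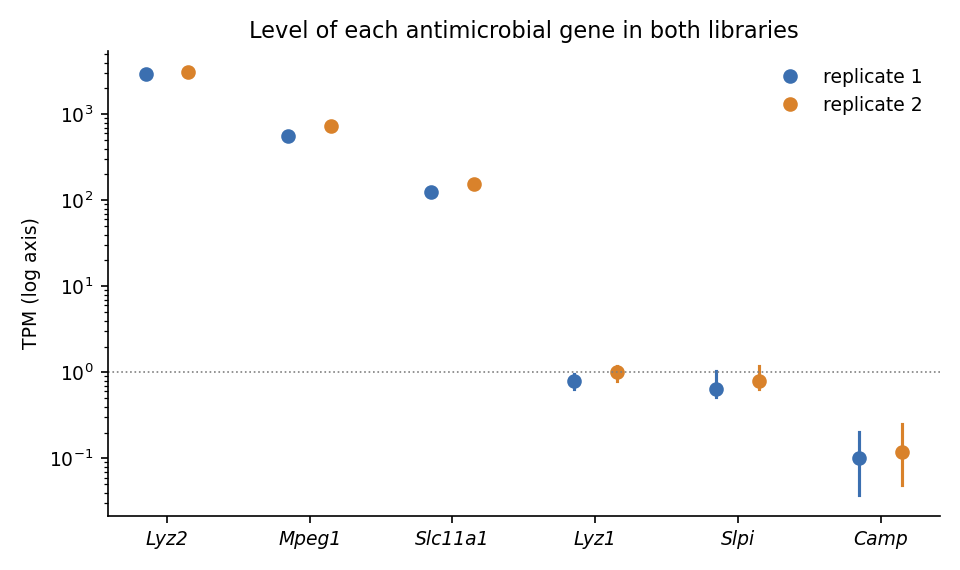
Deposited TPM of the 6 genes (y axis, log scale) in replicate 1 (blue) and replicate 2 (orange); lines are the deposited intervals, which lie around posterior means and whose level the files do not state, and the dotted line marks a TPM of 1. Lyz2, Mpeg1 and Slc11a1 lie above 100 in both libraries, while Lyz1, Slpi and Camp lie at or below 1.

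The 6 genes fell into 3 abundant and 3 scarce messages with a wide gap between. Mpeg1, the pore former, stood at 566.78 and 737.33 TPM, or 652 ± 121 (n = 2), rank 54 and 27. Slc11a1, the metal transporter, stood at 126.01 and 156.11, or 141 ± 21.3 (n = 2), rank 374 and 230. Both were higher in replicate 2. Slpi, the protease inhibitor, stood at 0.65 and 0.79, or 0.72 ± 0.099 (n = 2), rank 9575 and 9272. Camp, the cathelicidin, stood at 0.10 and 0.12, or 0.11 ± 0.014 (n = 2), rank 11101 and 10939. These low values were still counts and not zeros, at 45 and 47 for Slpi and 6 and 6 for Camp. The exact Poisson 95% interval of 6 counts is 2.20 to 13.1. The median protein-coding gene stood at 0.115 ± 0.007, so Camp lay at the middle of these genes, of which 39.8% were listed at 0 in replicate 1. In bulk RNA a low level in every cell and a high level in few cells cannot be told apart.

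The order of levels was the same in both libraries. Lyz2 exceeded Mpeg1 5.14-fold and 4.22-fold in TPM in replicates 1 and 2, and Mpeg1 exceeded Slc11a1 4.50-fold and 4.72-fold. Slc11a1 exceeded Lyz1, the highest of the scarce messages, 158-fold and 156-fold. Lyz1 exceeded Slpi only 1.23-fold and 1.27-fold, and here the deposited intervals overlapped, at 0.643 to 0.962 for Lyz1 and 0.518 to 1.03 for Slpi in replicate 1. In replicate 2 these were 0.804 to 1.20 and 0.645 to 1.17. Lyz1 and Slpi therefore did not differ beyond counting error. Slpi exceeded Camp 6.50-fold and 6.58-fold, without overlap of the intervals. Without correction for length, Lyz2 and Mpeg1 were nearer to each other, with 1.37 and 1.12 counts of Lyz2 for each count of Mpeg1. The transcript of Mpeg1 is 4334 bases long and that of Lyz2 1316.

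The 6 genes together took 0.991% and 1.23% of all expected counts in replicates 1 and 2. Nearly all of this was lysozyme and perforin-2, since Lyz2 and Mpeg1 held 97.4% and 97.2% of it. In TPM, Lyz2 alone held 80.7% and 77.7% of the 6 genes' sum. Replicate 1 had 64187219 expected counts over annotated genes and replicate 2 had 49429864, so counting error was small for the abundant messages and large for Camp.

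For each abundant message the 2 protein-coding genes nearest in level were found. Nearest to Lyz2 were Psap, the precursor of the saposins of lysosomes, at 2931 and 3180 TPM, and Actb, cytoplasmic actin, at 2865 and 3501. Nearest to Mpeg1 were Grn, progranulin, at 553 and 725, and Lgals3bp, a secreted glycoprotein, at 553 and 704. Nearest to Slc11a1 were Mx1, an interferon-induced antiviral GTPase, at 121 and 160, and Acp2, a lysosomal acid phosphatase, at 120 and 148. Likeness was the distance of log2(TPM + 0.1) over 2 libraries, which is a likeness of level alone.

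Gene neighbours on the chromosome did not share the levels of the abundant genes. Next to Lyz2, on the side away from Lyz1, 9530003J23Rik had no count in either library. Beyond Lyz1 came Cpsf6, of messenger RNA 3′ end processing, at 9.94 ± 0.27 TPM (n = 2). Mpeg1, at chr19:12460779-12465283 on the plus strand, was followed after 1054 bases by Dtx4 on the opposite strand, at 4.72 ± 0.96. On its other side lay Pfpl, which has a related sequence and no count. Slc11a1, at chr1:74375195-74386062 on the plus strand, lay between Catip at 0.030 ± 0.028 and Ctdsp1, a phosphatase, at 26.4 ± 4.61. Slpi lies at chr2:164354070-164389095 and Camp at chr9:109847379-109849617, both on the minus strand. The neighbours of Slpi, Svs5 and Matn4, were listed at 0 TPM, with 1 count for Matn4 in replicate 1, and those of Camp, Nme6 and Cdc25a, stood at 4.33 ± 1.13 and 1.02 ± 0.18.

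The leading transcripts of the other members were mostly unique in sequence. Words were compared in the annotated orientation of each transcript only, so matches to the opposite strand were not sought. No 31-base word of the leading transcripts of Slpi and Camp occurred in another gene's annotated transcripts. For Mpeg1 99.3% of words were unique, and the 31 shared ones all occurred in Pfpl. For the leading transcript of Slc11a1 96.2% were unique, and the shared ones occurred in 532 other genes. Its other transcripts were not compared with other genes. The lysozymes had 65.8% and 67.2% for Lyz1 and Lyz2.

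Slc11a1 was the member whose gene-level value depended most on how reads were divided among transcripts. Lyz1, Lyz2, Mpeg1 and Camp have 1 annotated transcript each. Slpi has 3, and Slpi-201 held 89.7% and 100% of its TPM, on 43.0 and 47 counts. Slc11a1 has 11, of which 2 are annotated as protein-coding, 5 as processed transcripts without a coding sequence and 4 as retained introns. Slc11a1-201, the 15-exon coding transcript, held 49.8% and 50.8% of the gene's TPM, with 62.7 and 79.2 TPM. Slc11a1-206, a processed transcript of 378 bases in 2 exons, held 44.1% and 42.5%, with 55.5 and 66.4 TPM. Slc11a1-207, also a processed transcript, held 4.78% and 5.42%. The other 8 held the small remainder.

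The coding transcript led by far when reads were counted. Slc11a1-201 held 14737 and 15241 expected counts, 89.3% of the gene's counts in each library. Slc11a1-206 held 1003 and 934, or 6.07% and 5.47%. The difference between the scales follows the effective length, the number of start positions a fragment can have. It was 161 and 152 bases for Slc11a1-206, against 2094 and 2085 for Slc11a1-201, so each count of the short transcript weighs more. The read-based table gave like shares of TPM, 46.7% and 49.4% for Slc11a1-201 and 44.2% and 39.6% for Slc11a1-206. The protein-coding transcripts alone stood at 63.0 and 79.6 TPM, which would rank Slc11a1 at 729 and 524 in place of 374 and 230. For this rank only Slc11a1 was reduced to its coding transcripts, while all other genes kept their whole level.

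**Figure D2:**
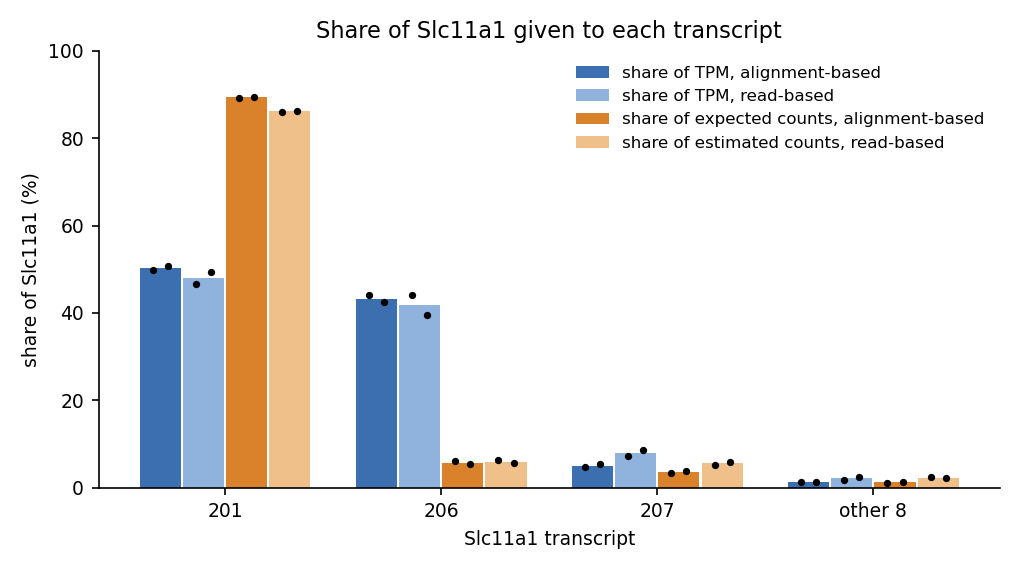
Share of Slc11a1 (y axis, percent) given to transcripts 201, 206, 207 and the other 8, by TPM and by counts in the alignment-based and read-based tables; bars are means of 2 libraries and points the libraries. Transcript 206 holds 43.3% of alignment-based TPM and 5.77% of alignment-based counts.

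A coding share this low was uncommon among genes. Over 8191 detected genes with more than 1 annotated transcript, the median share of TPM on protein-coding transcripts was 98.2% and 97.9% in replicates 1 and 2. For Slc11a1 it was 50.01% and 50.99%, and 5.27% and 5.32% of those genes had a lower one. This is a place in a distribution and not a test.

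The sequence that sets Slc11a1-206 apart lies in the first intron of the coding transcript. Exon 2 of Slc11a1-201 spans chr1:74375718-74375851, and the first exon of Slc11a1-206 ends at the same base but starts at 74375572. The exon is thus longer by 146 bases at its 5′ side, and the matching exon of Slc11a1-207 is longer by 116 bases. The 5′ end of Slc11a1-206, at chr1:74375572-74375747 on the plus strand, is shown with the bases within intron 1 of Slc11a1-201 in capitals.
Slc11a1-206: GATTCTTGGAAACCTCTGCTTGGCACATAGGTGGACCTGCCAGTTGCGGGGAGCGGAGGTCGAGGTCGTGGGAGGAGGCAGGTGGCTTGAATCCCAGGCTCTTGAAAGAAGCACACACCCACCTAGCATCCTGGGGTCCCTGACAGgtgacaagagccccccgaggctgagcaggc
Of the 348 words of 31 bases in Slc11a1-206, 146 did not occur in Slc11a1-201, and 30 occurred in neither Slc11a1-201 nor Slc11a1-207. The separation of the short transcripts from each other thus rests on few positions. Transcripts 206 and 207, which share the longer exon, together held 48.9% and 48.0% of the gene's TPM and 9.49% and 9.25% of its counts. The transcripts annotated as retained introns held 0.44% and 0.75% of the gene's TPM.

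**Figure D3:**
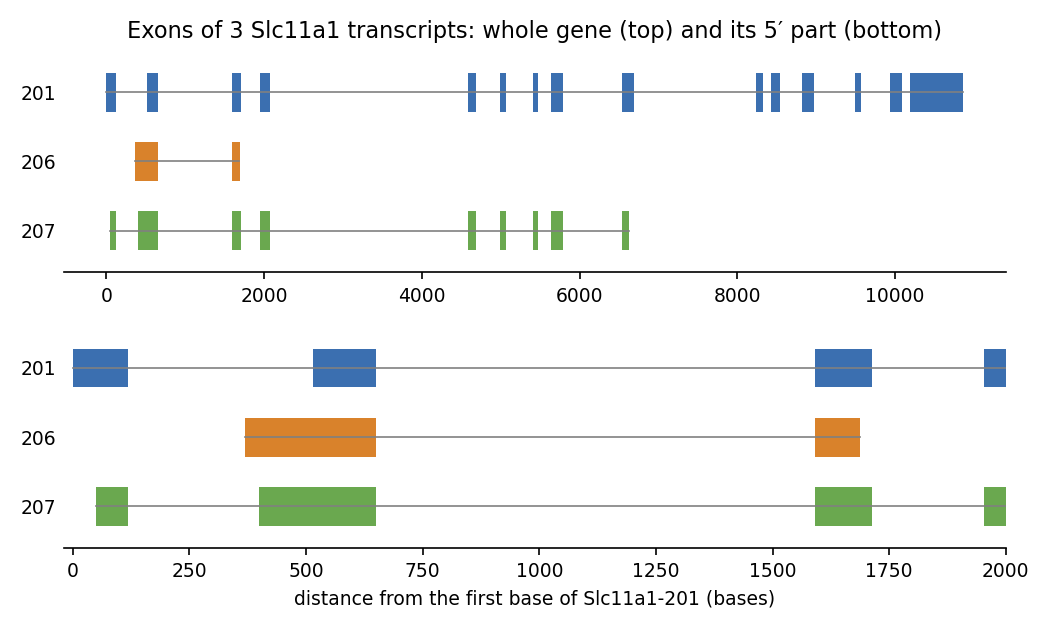
Exons (boxes) and introns (lines) of transcripts 201, 206 and 207 by distance in bases from the first base of Slc11a1-201, for the whole gene (top) and its 5′ part (bottom). Transcripts 206 and 207 have an exon that ends with exon 2 of transcript 201 and starts 146 and 116 bases further upstream.

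Lyz2 and Mpeg1 stood alone in their families in deposited TPM. Of 10 lysozyme and lysozyme-like genes Lyz2 was the only one at a TPM of 1 or more in both libraries, and 7 had no count in either. With TPM rescaled to protein-coding genes Lyz1 passed 1 as well, at 2.67 and 3.81 in replicates 1 and 2. The lists were not counted on that scale. Of 12 genes with a perforin-like domain Mpeg1 was the only one, and 8 had no count. Prf1, perforin of cytotoxic lymphocytes, had 0 and 2 counts. Among all protein-coding genes 40.0% reached a TPM of 1 in both libraries, and 7631 of 22028 had no count in either. These shares are the background for the other lists below as well. A gene with no count may still have had up to 3 counts, or 0.0467 and 0.0607 CPM (counts scaled to the library total) in replicates 1 and 2.

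Slpi was not the leading gene of its family. Of 11 genes with a WAP domain, the fold of Slpi, the only one at 1 TPM or more in both libraries was Wfdc17, a small secreted protein of activated macrophages, at 372 and 321 TPM, or 346 ± 36.4 (n = 2). Slpi stood at 0.72 ± 0.099, and 7 had no count. With TPM rescaled to protein-coding genes Slpi stood at 2.17 and 3.01 in replicates 1 and 2. That Wfdc17 alone passed 1 therefore holds for deposited TPM only. The order of Slpi and Wfdc18 depended on the table. Wfdc18 stood at 0.36 and 0.60 TPM, below Slpi, on only 12 and 16 counts. In read-based TPM it stood at 0.383 and 0.388 against 0.344 and 0.329 for Slpi. The granule serine proteases were as scarce: of 8 genes none reached 1 TPM, and Elane and Ctsg, neutrophil elastase and cathepsin G, had 1 and 1 and 1 and 4 counts.

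Slc11a1 stood highest in its list, and here most genes were detected. Of 9 genes of the SLC11 family and of metal export or delivery, 7 reached 1 TPM in both libraries. Slc11a2, the related metal importer, stood at 24.1 ± 1.06 TPM (n = 2), and Slc40a1, the iron exporter ferroportin, at 28.1 and 14.5. Lcn2, which binds bacterial siderophores, stood at 12.7 ± 0.035, and Atp7a, which delivers copper, at 9.89 ± 0.27. Slc30a1, a zinc exporter, stood at 9.36 ± 1.62 and Slc39a8, a zinc and manganese importer, at 1.62 ± 0.071. Hamp and Hamp2, the hepcidin genes, had no count. With protein-coding transcripts alone, Slc11a1 at 63.0 and 79.6 TPM still exceeded the whole level of each of the others.

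Camp stood among granule genes that were nearly all scarce. Of 14 genes for cathelicidin and other granule antimicrobials 3 reached 1 TPM in both libraries: Rnase4, a secreted ribonuclease, at 18.3 ± 7.47, Rnase6, an antimicrobial ribonuclease, at 3.87 ± 1.12, and Chil3, a chitinase-like protein of myeloid cells, at 1.60 ± 0.69. The list's median was 0.050 ± 0.014 TPM, against 0.115 ± 0.007 for all protein-coding genes. Of 12 neutrophil markers 3 reached 1 TPM, S100a9 at 5.22 ± 2.95, S100a8 at 3.28 ± 1.51 and Mmp8 at 1.73 ± 0.35. Ly6g and Retnlg, which mark mature neutrophils, had no count in either library. Macrophage markers were all present: 10 of 10 reached 10 TPM in both libraries, with a median of 106 ± 6.52. Among all protein-coding genes 3436 of 22028 did. Of 7 Paneth cell markers, the cells Lyz1 is known from, 6 had no count and Mmp7, a protease, had 0 and 2. Of 6 epithelial markers 5 had no count.

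**Figure D4:**
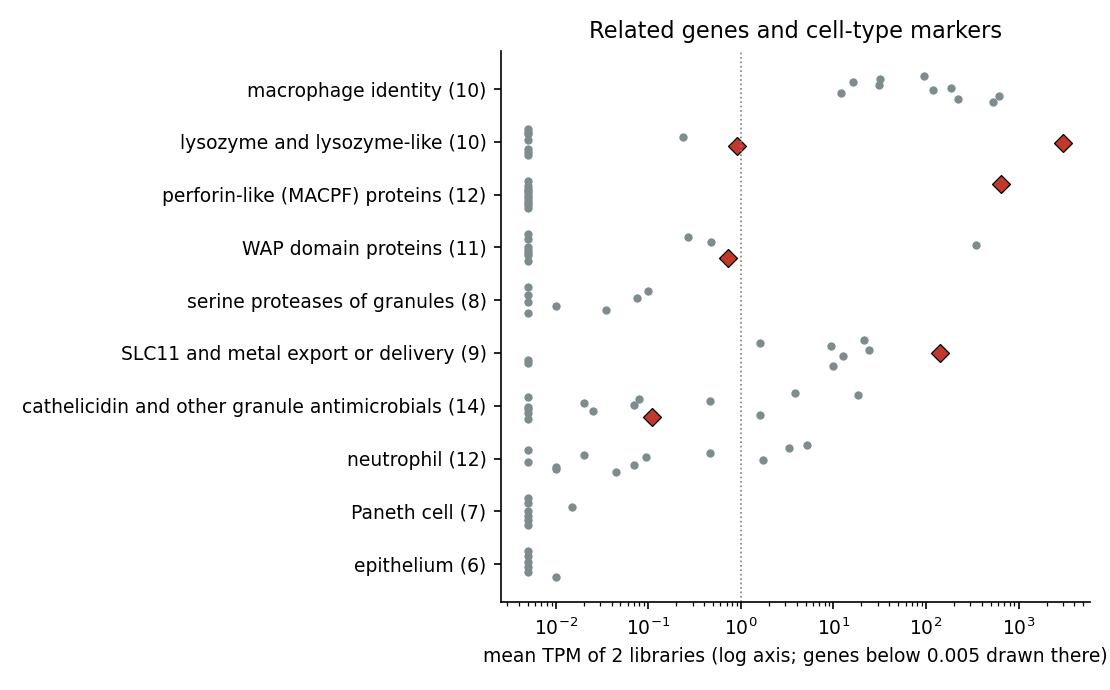
Mean TPM of 2 libraries (x axis, log scale) for each gene of 10 lists (rows, number of genes in brackets); red diamonds are the 6 antimicrobial genes and grey points the other listed genes. Lyz2 and Mpeg1 stand alone above a TPM of 1 (dotted line) in their lists, Slc11a1 leads its list, and Slpi lies below Wfdc17.

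In expected counts scaled by TMM, which equalises libraries by their bulk of genes, replicate 2 exceeded replicate 1 1.13-fold for Lyz2, with an exact interval of 1.13 to 1.14. For Mpeg1 the ratio was 1.39, with an interval of 1.38 to 1.39, and for Slc11a1 1.34, with an interval of 1.31 to 1.37. These intervals exclude equal levels, but they hold counting error only and so compare the libraries and not conditions. For the scarce messages the ratio was 1.33 (0.986 to 1.79) for Lyz1, 1.36 (0.882 to 2.09) for Slpi and 1.30 (0.347 to 4.86) for Camp. For these 3 a difference was not detectable at this depth.

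Of the 5 members with a mean count of at least 10, none was 1.5-fold or more apart, against a background of 17.3% of the 13298 genes with that count (2296 genes). Camp was below that count. In read-based TPM rescaled to protein-coding genes, a scale chosen after seeing the data, the ratios ran from 1.18 to 1.57. There 2 of the 5 were at least 1.5-fold apart, Lyz1 at 1.57 and Mpeg1 at 1.52, against 18.7% of genes. With so few members, neither count is set apart from the background. The median ratio of the 5 was 1.34 and that of all genes tested 0.974. The ratio was above 1 for 6 of 6 members in counts under each of 3 scalings and in alignment-based TPM, at 1.07 to 1.30. In read-based TPM it was above 1 for 1 of 6, at 0.766 to 1.02. That scale moved all genes too: its median ratio was 0.687, a shift of -0.54 in log2, against -0.13 in alignment-based TPM. Relative to the median of the same scale, 6 of 6 members were higher in replicate 2 on all 8 scales. As many genes lie above a median as below it, so a place above it is common. In TMM-scaled counts, 72.5% (Lyz2) to 88.8% (Mpeg1) of the genes tested had a lower ratio than the member. Camp is among the 6 with a mean count of only 6. Dividing by the median cancels a factor per library, so scales that differ only by such a factor had to agree. Protein-coding genes held 29.9% and 26.2% of alignment-based TPM in replicates 1 and 2 and 17.8% and 11.6% of read-based TPM.

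Other myeloid genes differed between the libraries as well. Adgre1, the macrophage marker F4/80, was 2.10-fold and Itgam 1.61-fold higher in replicate 2, while Cd14 was at 0.696-fold and Cd68 at 0.827-fold. Neutrophil markers summed to 7.69 TPM in replicate 1 and 14.2 in replicate 2, with S100a9 2.41-fold and S100a8 2.03-fold higher. Mmp8, the neutrophil marker with the most counts, went the other way, at 490 and 300 counts and a ratio of 0.795. Ngp, a neutrophil granule protein like Camp, had 24 and 66 counts, while Camp had 6 and 6. The part of these markers in the members' ratios was not tested.

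**Figure D5:**
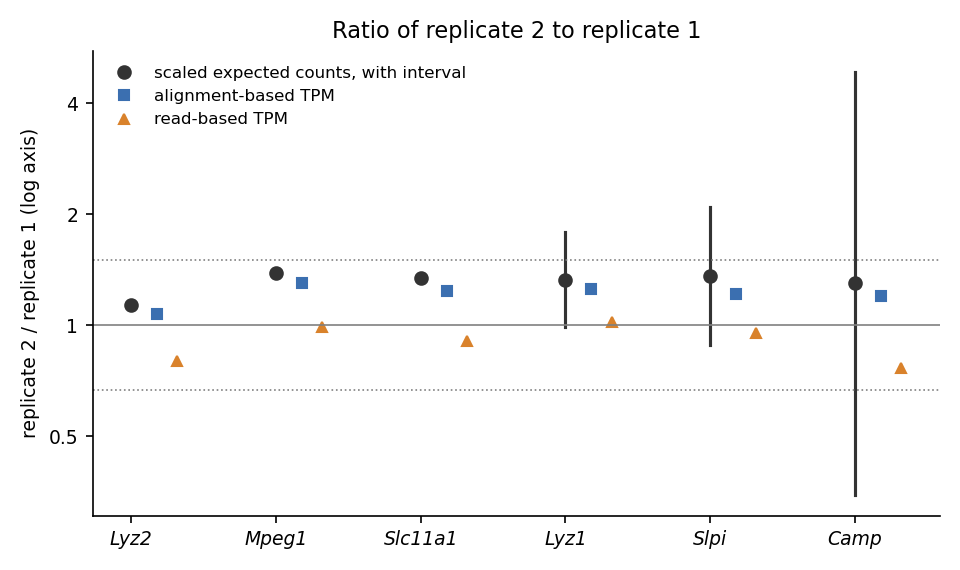
Ratio of replicate 2 to replicate 1 (y axis, log scale) for each gene in TMM-scaled expected counts (black, with exact 95% counting intervals), alignment-based TPM (blue) and read-based TPM (orange); the solid line marks equality and dotted lines a 1.5-fold difference. All count ratios lie between 1.13 and 1.39, and read-based TPM ratios lie between 0.766 and 1.02.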

How the data were processed

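Cytosolic total RNA of lipid A-treated macrophages was sequenced in 2 libraries, both of 1 group. The libraries were made from 1 µg each, and their size range was 250 to 400 per the labels. The text deposited beside the tables names mm10 and GENCODE M21. For the aligner, quantifiers and strandedness: not given in the sources used here. The authors deposited expected counts, TPM, FPKM and transcript percent values from an alignment, and estimated counts and TPM from the reads, per the file headers. TPM is a share of all RNA, so a larger share for other RNAs lowers it for protein-coding genes. Protein-coding genes held 29.9% and 26.2% of alignment-based TPM in replicates 1 and 2. The RNAs that held the rest were not broken down here.

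The members and lists were chosen with earlier results of these data known. All 6 members are named, with up to 6 of the highest detected and 3 of the lowest genes of each list, the 2 genes nearest in level to the abundant members, and the chromosomal neighbours. Elane, Ctsg, Ngp, Prf1, Mmp7 and Wfdc18 were named after their values were seen. Expected counts were rounded and scaled by TMM (edgeR 4.0.16); DESeq2 1.42.0 size factors, CPM, FPKM and other settings were alternatives. Ratios carry Clopper-Pearson 95% intervals, counting error only, and were checked on simulated counts. The simulated counts were Poisson, with no other variation between libraries and no error of read assignment. That check therefore cannot show how the intervals fare with either. With 1 group no test between conditions and no paired analysis was possible. Promoter windows came from RefSeq tables and matched 6 of 6 members; protein sequences were not used here.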

Additional observations from a re-analysis of the deposited data

How the results depend on the processing

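The direction of the replicate ratios turned in read-based TPM, where 1 of 6 members was above 1; the order of Slpi and Wfdc18 also turned in that table. The log2 difference of Lyz2 and Lyz1 was 11.56, and 11.47 to 11.66 without either replicate. It was 10.63 with a pseudocount of 1, 11.79 in expected counts with no correction for length and 11.55 in the read-based table. The share of Slc11a1-201 was 50.26%, 49.77% to 50.75% without either replicate, 48.0% in the read-based table and 89.3% by counts. That of Slc11a1-206 was 43.3%, 42.53% to 44.07% without either replicate, 41.9% in the read-based table and 5.77% by counts, a scale chosen after seeing the data. Members at least 1.5-fold apart numbered 0 under 6 other planned scalings, tables and thresholds. Among scales chosen after seeing the data, they numbered 0 in alignment-based TPM rescaled to protein-coding genes and 0 in read-based TPM. They numbered 2, Lyz1 and Mpeg1, in read-based TPM rescaled to protein-coding genes, chosen in the same way. All genes so far apart numbered 2296, against 877 at a fold of 2, 8173 with no count minimum and 6356 in read-based TPM, also chosen after seeing the data. The ratio needs both libraries, so leaving either out gives no value for it. Levels scaled with the table. In read-based TPM, Lyz2, Mpeg1, Slc11a1, Lyz1, Slpi and Camp stood at 1457, 318, 69.0, 0.385, 0.337 and 0.0555. Rescaled to protein-coding genes, alignment-based TPM became 10805, 2353, 508, 3.24, 2.59 and 0.396, and read-based TPM, a scale chosen after seeing the data, 10156, 2266, 488, 2.75, 2.39 and 0.385. Percentiles among protein-coding genes moved beyond the replicate SD in 10 of 30 settings. In read-based TPM the mean percentile of Lyz2 was 99.61 against 99.97, and that of Mpeg1 99.45 against 99.82, so their ranks were lower there. Leaving out 1 of 2 replicates cannot move a value beyond their SD, and FPKM orders the genes of a library as TPM does. Those settings could therefore not show a move, and all 10 moves came in CPM or in the read-based table. Depth limits Camp, Slpi and Lyz1, and the labels do not show that the replicates came from different animals.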
